A study of Mus musculus with 8 samples.

Results

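Lgr5 Low cells, sorted from the crypts of Lgr5-EGFP knock-in mice for low fluorescence of the reporter, were compared with EphB2 Medium cells, sorted from crypts for an intermediate amount of the surface receptor EphB2. Each gate lies below a High gate on its own marker, so both are progenitor gates of the crypt reached through different markers. The arrays were chosen by their titles: 1 Lgr5 Low array and 2 EphB2 Medium arrays, 3 of the 8 arrays of the series. The other arrays were 1 of Lgr5 High cells, 2 of EphB2 High cells and 2 of EphB2 Low cells, and served to place the comparison. All cells were crypt cells of C57BL/6 mice according to the labels, which give no age, sex, number of animals or pooling. The reporter sits at the Lgr5 locus itself, and in Lgr5 Low cells a low signal decides membership, whereas EphB2 Medium cells were stained with an antibody. The Lgr5 Low and Lgr5 High arrays formed 1 hybridization, and the EphB2 arrays 2 others, each holding 1 array of every EphB2 group. The marker, the mice and the hybridization therefore cannot be told apart in a direct comparison of Lgr5 Low with EphB2 Medium cells.

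Stem cells at the crypt base give rise to progenitors that divide several times while they move up and choose a fate. Cells that escape Notch signalling and make the transcription factor Atoh1 enter the secretory lineages, which are Paneth cells (antimicrobial peptides, kept at the crypt base), goblet cells (mucus), enteroendocrine cells (hormones) and, by a partly separate route, tuft cells (chemosensing and immune signals). Cells in which Notch is active become absorptive enterocytes, which carry the digestive enzymes and transporters of the brush border. Surface EphB2 falls steadily from the crypt base upwards, while Lgr5 is shut off as cells leave the base.

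Values are log2 levels after RMA, a procedure that corrects background, equalises the arrays and combines the probes of a probe set. A difference of 1 on this scale is 2-fold, and levels of different genes cannot be set against each other. RMA left the array medians nearly equal, and 18193 genes were each represented by 1 probe set. Across genes, the Lgr5 Low array correlated with the EphB2 Medium arrays at 0.991 and 0.991, and the EphB2 Medium arrays correlated with each other at 0.996. The dimmest 25% of genes had a median of 3.66 on the Lgr5 Low array, against 3.53 and 3.45 on the EphB2 Medium arrays and 3.47 to 3.56 on the others. In sorted bulk cells, fewer cells of a type and less RNA per cell cannot be told apart. A single array of Lgr5 Low cells has no spread of its own, so each test assumed that it varied as the EphB2 arrays did, and the number of arrays limits the precision of every value. Because both Lgr5 arrays could share a shift of their hybridization, a gene was discounted where the Lgr5 High array also lay outside the range of all 6 EphB2 arrays on the same side as the difference.

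The sort marker itself was checked first. Lgr5, the R-spondin receptor behind the reporter, read 5.75 on the Lgr5 Low array, against 7.70 and 8.01 on the EphB2 Medium arrays, 10.15 on the Lgr5 High array, 9.48 and 9.64 on the EphB2 High arrays and 5.66 and 4.96 on the EphB2 Low arrays. The Lgr5 Low array thus lay near EphB2 Low cells for this gene and not near EphB2 Medium cells. The difference of Lgr5 Low from EphB2 Medium cells was -2.10 ± 0.31 (log2, SE; 4.30-fold lower), which did not pass adjustment over all probe sets (limma adjusted p = 0.083). Since the gate selects on this locus, the low value describes the gate and is not a finding.

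By the median over genes that separate the ends of the crypt, the arrays of both gates lay at nearly the same position. For the 3459 genes that differed at least 2-fold between EphB2 High and EphB2 Low cells, each array was placed by its distance from the EphB2 High mean, in percent of the distance to the EphB2 Low mean. The Lgr5 Low array had a median position of 34.3%, against 29.6% and 27.6% for the EphB2 Medium arrays, and the Lgr5 High array lay at -2.7%. The Lgr5 Low array was thus slightly further from the EphB2 High end than both EphB2 Medium arrays. The same order held for the 1387 genes higher in EphB2 Low cells (36.8% in Lgr5 Low cells, against 34.4% and 33.7% in EphB2 Medium cells) and for the 2072 genes higher in EphB2 High cells (32.9% in Lgr5 Low cells, against 27.2% and 24.8% in EphB2 Medium cells). The Lgr5 High array lay at -14.0% and 4.6% for these sets. Positions differed between kinds of genes. For 15 tuft cell genes the Lgr5 Low array lay at 6.0%, against 48.0% and 83.6% for the EphB2 Medium arrays. For 17 brush border hydrolase genes it lay at 60.0%, against 40.6% and 47.9%, and for 20 stem cell genes at 32.2%, against 31.3% and 31.9%.

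Few genes passed a test between the gates. Of 18193 genes, 31 were higher and 1 was lower in Lgr5 Low than in EphB2 Medium cells (limma, Benjamini-Hochberg adjusted p below 0.05). The discount by the Lgr5 High array removed 19 of the 31 and the single lower gene, leaving 12 higher genes (0.066% of those tested) and 0 lower genes (0.0%). At an unadjusted p below 0.05, 1770 genes were higher and 1046 were lower. The 12 calls depended on the fit: 0 remained when the hybridization number was added as a replicate block, and 0 remained when any 1 of the 6 EphB2 arrays was left out. Of the 12, 4 lay above the median gene level of 7.92 in the brighter group, and they were Saa1, Pla2g2a, Acaa1a and Ace.

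**Figure D1:**
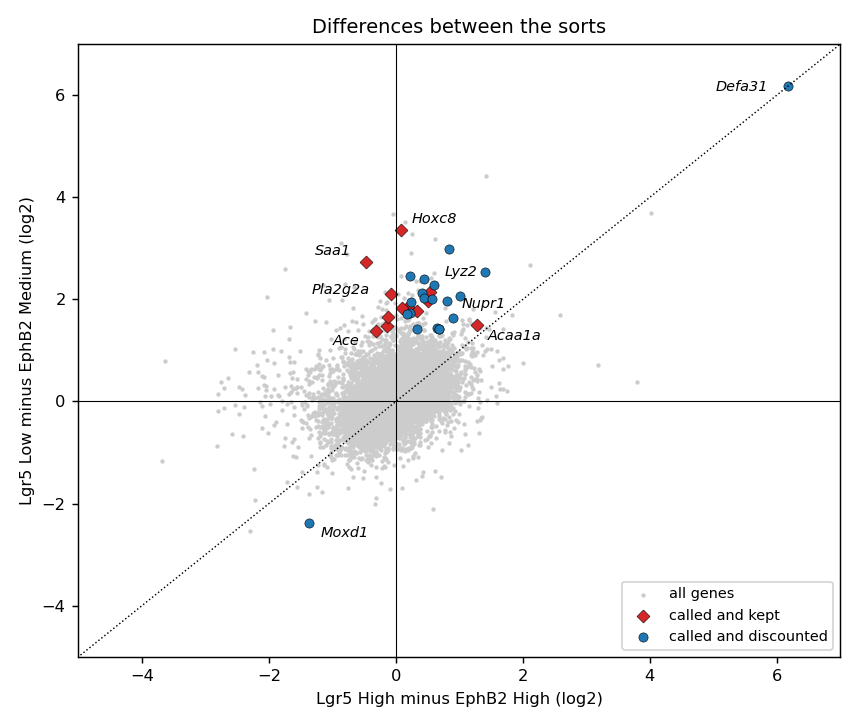
Each point is 1 gene, with the log2 difference of Lgr5 Low from EphB2 Medium cells on the vertical axis and that of Lgr5 High from EphB2 High cells on the horizontal axis. Red diamonds are the 12 genes called and kept, blue circles the 20 genes called and discounted, and the dotted line marks equal differences. Defa31 lies on that line at 6.19 on the vertical axis, while Saa1 and Ace lie above 0 on the vertical axis and slightly below 0 on the horizontal axis.

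Saa1 encodes serum amyloid A, an acute-phase protein that the gut epithelium also makes. Its level was 10.44 in Lgr5 Low cells, against 7.87 and 7.55 in EphB2 Medium cells, 4.82 in Lgr5 High cells, 5.43 and 5.16 in EphB2 High cells and 11.67 and 11.14 in EphB2 Low cells. It rose by 2.74 ± 0.28 (limma adjusted p = 0.048), and its second probe set gave 2.85. The Lgr5 Low array lay between EphB2 Medium and EphB2 Low cells for this gene, whose main probe set may also bind its near copies.

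Ace, a brush border peptidase that trims dipeptides from peptide ends, read 10.05 in Lgr5 Low cells, against 8.66 and 8.66 in EphB2 Medium cells and 11.68 and 11.77 in EphB2 Low cells. It rose by 1.39 ± 0.15 (limma adjusted p = 0.048). Its second probe set, about as bright, differed by 0.61, at 9.49 in Lgr5 Low cells, against 8.68 and 9.08 in EphB2 Medium cells. Acaa1a, a thiolase of peroxisomal fatty acid oxidation, read 11.68 in Lgr5 Low cells, against 10.18 and 10.20 in EphB2 Medium cells (1.49 ± 0.15, limma adjusted p = 0.048). Lgr5 High cells were higher as well, at 11.12, against 9.86 and 9.84 in EphB2 High cells, a difference of 1.27. The gene was kept because EphB2 Low cells, at 11.54 and 11.42, also lay high, and its dimmer second probe set differed by 0.50 between Lgr5 Low and EphB2 Medium cells. Its probe set may also bind its near copy Acaa1b, which read 9.95 in Lgr5 Low cells, against 8.22 and 8.64 in EphB2 Medium cells. Both therefore count as 1 uncertain observation.

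The other 8 kept calls were dim genes, among them the homeobox genes Hoxc8 and Meis1 and the semaphorin Sema3e. Hoxc8 read 5.64 in Lgr5 Low cells, against 2.34 and 2.23 in EphB2 Medium cells, and no other array exceeded 2.66. Each of the other 7 read at most 6.47 in Lgr5 Low cells, below the median gene, where the Lgr5 Low array was also brighter over the dimmest 25% of genes as a whole. How much of these 8 differences that brightness accounts for was not tested.

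A description with no test was used to see further into the lists. A gene was counted where it differed at least 2-fold, where the Lgr5 Low array lay outside both EphB2 Medium arrays and where it was not discounted. This held for 259 genes that were higher (1.42% of 18193) and 53 that were lower (0.291%) in Lgr5 Low cells. Of these, 76 higher and 11 lower genes lay above the median gene level in the brighter group (0.816% and 0.118% of 9318 such genes). The Lgr5 Low array lay above both EphB2 Medium arrays, by any amount, for 40.8% of genes and below both for 36.9%, and the median difference over all genes was 0.01.

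Tuft and Paneth cell genes had the largest median differences of the 22 lists. In the plot of list medians, the Lgr5 Low array lay above both EphB2 Medium arrays for all 4 secretory lineages and for the commitment genes, closely so for enteroendocrine genes, and for Paneth, goblet and commitment genes it lay above every other array. Median differences were 0.89 for tuft cell genes, 0.84 for Paneth cell genes, 0.60 for enteroendocrine genes, 0.45 for goblet cell genes and 0.39 for commitment genes. Members above both EphB2 Medium arrays numbered 22 of 26 tuft, 14 of 16 Paneth, 25 of 29 goblet, 24 of 36 enteroendocrine and 16 of 20 commitment genes, beside 40.8% of all genes.

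**Figure D2:**
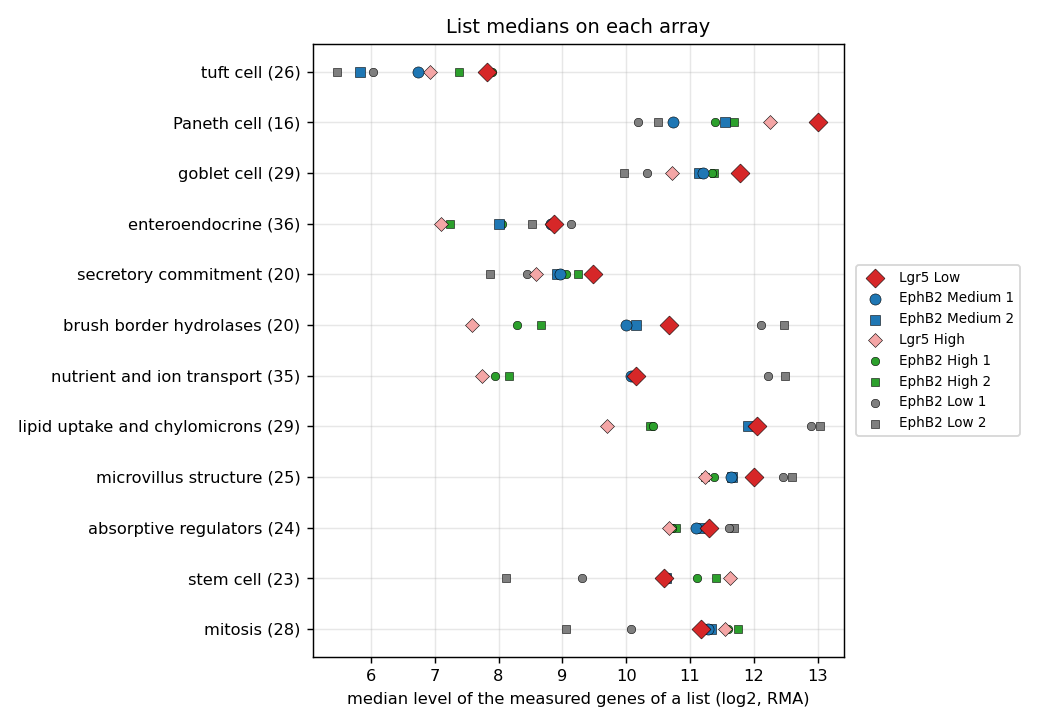
Each row is a gene list, with its number of measured genes in brackets, and each symbol is the median log2 level of those genes on 1 array. The Lgr5 Low array (large red diamond) lies at 13.01 for Paneth cell genes, against 10.73 and 11.54 for the EphB2 Medium arrays (large blue symbols), and at 10.58 for stem cell genes, against 10.60 and 10.62 for the EphB2 Medium arrays.

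The regulators of secretory fate were read first. Spdef, a transcription factor that matures goblet and Paneth cells, stood at 10.95 in Lgr5 Low cells, against 9.81 and 9.65 in EphB2 Medium cells, 9.24 in Lgr5 High cells and 10.08 and 10.02 in EphB2 High cells. The Lgr5 Low value was above every other array, and the difference of 1.23 ± 0.26 did not pass adjustment (limma adjusted p = 0.14). Atoh1, the factor that opens the secretory route, read 9.58 in Lgr5 Low cells, against 8.66 and 9.07 in EphB2 Medium cells (0.72 ± 0.32, limma adjusted p = 0.34). Gfi1, which acts below Atoh1 and holds back the enteroendocrine fate, read 8.45 in Lgr5 Low cells, against 8.06 and 8.15 in EphB2 Medium cells.

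Selenom, a selenoprotein of the endoplasmic reticulum, reached 12.12 in Lgr5 Low cells, against 10.89 and 10.78 in EphB2 Medium cells (1.29 ± 0.15, limma adjusted p = 0.059). With Spdef it was 1 of the 2 commitment genes at least 2-fold higher (10.0% of 20, beside 1.42% of all genes). Kit, a receptor tyrosine kinase, read 9.05 in Lgr5 Low cells, against 7.85 and 8.43 in EphB2 Medium cells. The membrane-bound transcription factor Creb3l4 read 9.64 in Lgr5 Low cells, against 8.98 and 8.98 in EphB2 Medium cells. The Notch ligands Dll1 and Dll4, which secretory progenitors present to their neighbours, differed by 0.42 and 0.47 and lay above both EphB2 Medium arrays. Dll3, a ligand that was dim throughout, was the only commitment gene below both, at 4.94 in Lgr5 Low cells, against 5.40 and 5.53 in EphB2 Medium cells.

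Factors of the enteroendocrine route were less even. Neurog3, which commits cells to the endocrine fate, read 8.50 in Lgr5 Low cells, against 7.84 and 8.38 in EphB2 Medium cells. Insm1, which acts after it, read 8.09 in Lgr5 Low cells, against 7.06 and 7.70 in EphB2 Medium cells, and Neurod1 read 10.06 in Lgr5 Low cells, against 9.72 and 8.86 in EphB2 Medium cells. In all 3 the Lgr5 Low array lay above both EphB2 Medium arrays, which stood well apart from each other. Xbp1, Foxa1 and Foxa3, general secretory factors, differed by 0.11, 0.13 and -0.09.

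Paneth cell genes held the largest single difference, that of Defa31, and the only kept call among the secretory lists, Pla2g2a. This secreted phospholipase, which kills bacteria, read 12.35 in Lgr5 Low cells, against 10.11 and 10.38 in EphB2 Medium cells, 11.44 in Lgr5 High cells, 11.46 and 11.56 in EphB2 High cells and 8.73 and 8.77 in EphB2 Low cells. It was higher in Lgr5 Low cells than on any other array and rose by 2.10 ± 0.17 (4.29-fold, limma adjusted p = 0.037). It was the only kept call among the 16 measured Paneth genes, beside 0.066% of all genes. Under the alternatives its adjusted p ran between 0.017 and 0.31.

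Another 3 Paneth genes passed the test and were discounted, because Lgr5 High cells also lay above all EphB2 arrays. Lyz2, a lysozyme of macrophages and Paneth cells, read 12.27 in Lgr5 Low cells, against 9.83 and 10.15 in EphB2 Medium cells, with 10.93 in Lgr5 High cells, just above the highest EphB2 array at 10.35. Nupr1, a stress-induced chromatin protein, read 13.39 in Lgr5 Low cells, against 11.34 and 11.50 in EphB2 Medium cells, with 12.62 in Lgr5 High cells and at most 11.83 on an EphB2 array. Defa31, an alpha-defensin, read 14.19 in Lgr5 Low and 13.85 in Lgr5 High cells, against 7.53 to 8.20 on all 6 EphB2 arrays, so that the Lgr5 arrays stood apart as a pair. Defensin genes are near copies of each other, and their probe sets may share signal.

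Mmp7, Pnliprp2 and Habp2 were at least 2-fold higher and kept without passing the test. Mmp7, the protease that activates defensins, read 12.98 in Lgr5 Low cells, against 11.61 and 11.97 in EphB2 Medium cells (1.20 ± 0.21, limma adjusted p = 0.10). Pnliprp2, a lipase, read 13.04 in Lgr5 Low cells, against 10.14 and 11.59 in EphB2 Medium cells, and just escaped the discount with 12.14 in Lgr5 High cells, against 12.27 on the highest EphB2 array. Habp2, a protease that binds hyaluronan, read 6.83 in Lgr5 Low cells, against 5.19 and 5.51 in EphB2 Medium cells.

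Abundant Paneth products differed less on their brightest probe sets. Lyz1, the main lysozyme of Paneth cells, read 14.37 in Lgr5 Low cells, against 13.62 and 13.90 in EphB2 Medium cells. The lectin Itln1 read 14.15 in Lgr5 Low cells, against 13.24 and 13.59 in EphB2 Medium cells, and the ribonuclease Ang4 read 14.12 in Lgr5 Low cells, against 13.39 and 13.87 in EphB2 Medium cells. All 3 lay above both EphB2 Medium arrays, near the top of the range of levels. A dimmer Ang4 probe set differed by more, at 13.26 in Lgr5 Low cells, against 11.67 and 12.55 in EphB2 Medium cells (1.14). Reg3g, an antibacterial lectin that enterocytes also make, and Defa3 were the members that did not lie above both.

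Myeloid markers were set beside the Paneth genes, because Lyz2 belongs to both lists. Of 15 measured myeloid genes, 10 lay above both EphB2 Medium arrays, beside 40.8% of all genes, and 0 lay below both. The median difference was 0.24. The list median per array was 4.51 in Lgr5 Low cells, against 4.42 and 4.15 in EphB2 Medium cells and 4.24 to 4.52 on the other 5 arrays. Csf1r, the defining receptor of macrophages, read 5.48 in Lgr5 Low cells, against 5.82 and 5.43 in EphB2 Medium cells. Its dimmer probe sets were higher in Lgr5 Low cells, by 0.52 and 0.78. Adgre1, a macrophage surface antigen, read 3.58 in Lgr5 Low cells, against 3.50 and 3.33 in EphB2 Medium cells. These levels are those of genes in the dim range on every array. Lymphocyte genes had a list median of 4.57 in Lgr5 Low cells, against 4.20 and 4.16 in EphB2 Medium cells, and stromal genes of 4.64 in Lgr5 Low cells, against 4.47 and 4.40 in EphB2 Medium cells. Vim, the brightest stromal list member and an intermediate filament protein, read 11.05 in Lgr5 Low cells, against 10.92 and 9.22 in EphB2 Medium cells, and was the highest of the 8 arrays (0.98 ± 0.88, limma adjusted p = 0.64). Vim is also a member of the enteroendocrine list. The part of myeloid, lymphocyte and stromal cells in the secretory values was not tested.

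Tuft cell genes had the most members past 2-fold. Of 26 measured genes, 12 were at least 2-fold higher in Lgr5 Low cells and kept (46.2%, beside 1.42% of all genes), and 0 were lower. The count was 8 when the first EphB2 Medium array stood alone as the comparator and 14 with the second alone. None passed the test (limma adjusted p of the 12 between 0.12 and 0.49), and the EphB2 Medium arrays were far apart for most of these genes. The tuft median was 7.81 in Lgr5 Low cells, against 6.74 and 5.82 in EphB2 Medium cells, 6.92 in Lgr5 High cells and 7.89 and 7.38 in EphB2 High cells.

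Rgs13, a regulator that shortens G protein signals, read 8.71 in Lgr5 Low cells, against 6.32 and 4.90 in EphB2 Medium cells, 7.33 in Lgr5 High cells and 8.31 and 8.08 in EphB2 High cells. The difference of Lgr5 Low from EphB2 Medium cells was 3.10 ± 0.61 (limma adjusted p = 0.12). Siglecf, a sialic acid-binding receptor of tuft cells and eosinophils, read 7.69 in Lgr5 Low cells, against 5.43 and 3.60 in EphB2 Medium cells (3.17 ± 0.88, limma adjusted p = 0.20). In both genes the Lgr5 Low array was the highest of the 8 arrays, and the EphB2 Medium arrays alone differed by more than 2-fold.

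The taste transduction genes went the same way. Trpm5, the cation channel that depolarises chemosensory cells, read 9.13 in Lgr5 Low cells, against 7.90 and 6.38 in EphB2 Medium cells, and the phospholipase Plcb2 upstream of it read 8.24 in Lgr5 Low cells, against 7.15 and 6.76 in EphB2 Medium cells. Alox5ap, which starts leukotriene synthesis together with Alox5, read 8.78 in Lgr5 Low cells, against 7.56 and 6.84 in EphB2 Medium cells. Alox5 itself read 6.65 in Lgr5 Low cells, against 6.36 and 4.62 in EphB2 Medium cells. In all 4 genes the Lgr5 Low array lay above both EphB2 Medium arrays. The SH2 domain protein Sh2d6 read 8.81 in Lgr5 Low cells, against 7.24 and 5.79 in EphB2 Medium cells.

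Avil, an actin-bundling villin relative, differed by 1.56, the exchange factor Vav1 by 1.66, the adaptor Fyb by 1.03, Ly6g6d by 1.04 and Dclk1, the kinase most used to mark tuft cells, by 1.03. All 8 further Dclk1 probe sets were also higher in Lgr5 Low than in the mean of EphB2 Medium cells. Il25, the cytokine by which tuft cells alert lymphocytes, was dim at 4.82 in Lgr5 Low cells, against 4.22 and 3.80 in EphB2 Medium cells. Pou2f3, the master factor of the lineage, went the other way at 3.84 in Lgr5 Low cells, against 4.30 and 4.47 in EphB2 Medium cells, on a probe set that never exceeded 5.02. Hpgds and Sox9 were the remaining members not above both EphB2 Medium arrays, together with Il17rb.

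**Figure D3:**
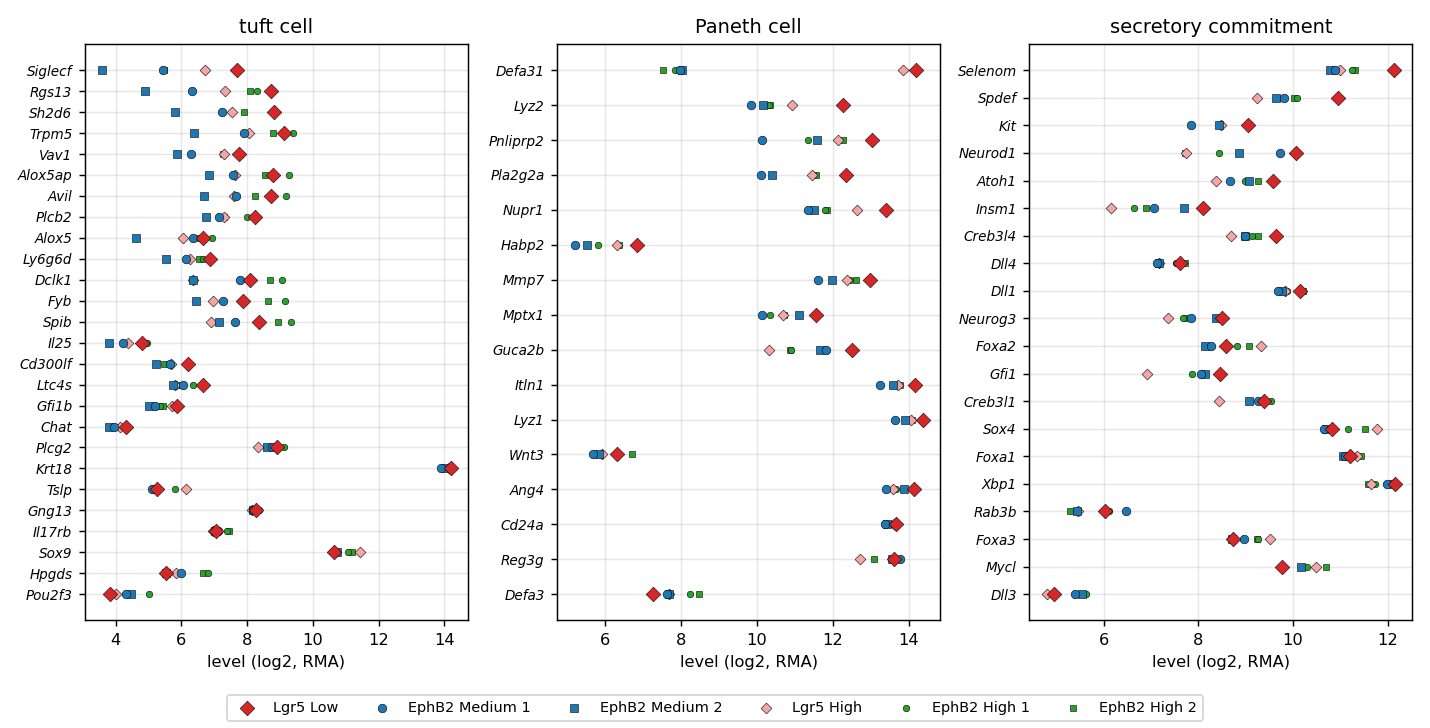
Each row is a gene and each symbol its log2 level on 1 array, for Lgr5 Low (red diamond), EphB2 Medium (blue), Lgr5 High (pale diamond) and EphB2 High (green) cells, with genes sorted by the difference of Lgr5 Low from EphB2 Medium cells. For 12 tuft genes the red diamond lies at least 2-fold above the mean of the EphB2 Medium arrays, and Defa31 separates both Lgr5 arrays from all the others shown.

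Goblet cell genes were higher by small amounts on many members. Ern2, the stress sensor of mucus-secreting cells, read 9.81 in Lgr5 Low cells, against 8.70 and 8.77 in EphB2 Medium cells (1.07 ± 0.21, limma adjusted p = 0.12), and with Spdef was 1 of 2 genes past 2-fold among 29 (6.9%, beside 1.42% of all genes). Muc2, the gel-forming mucin, read 13.00 in Lgr5 Low cells, against 12.33 and 12.77 in EphB2 Medium cells. The vesicle protein Sytl2 read 9.45 in Lgr5 Low cells, against 8.45 and 9.02 in EphB2 Medium cells. The trefoil peptide Tff3 read 13.97 in Lgr5 Low cells, against 13.84 and 13.91 in EphB2 Medium cells. The list median was 0.23 when the second EphB2 Medium array alone was the comparator, with 0.53 against the first alone.

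Enteroendocrine values depended on the EphB2 Medium array they were set against. The list median was 8.87 in Lgr5 Low cells, against 8.82 and 8.01 in EphB2 Medium cells. At least 2-fold higher members numbered 4 of 36 (11.1%, beside 1.42% of all genes), but 17 without the first EphB2 Medium array and 3 without the second. The counts over all 18193 genes were 325 without the first and 271 without the second. The hormones Sst and Sct stood above both arrays by more. Sst, the inhibitory hormone somatostatin, read 10.42 in Lgr5 Low cells, against 8.88 and 8.41 in EphB2 Medium cells, and was the highest of the 8 arrays (1.78 ± 0.32, limma adjusted p = 0.10). Sct, secretin, read 11.71 in Lgr5 Low cells, against 10.56 and 10.08 in EphB2 Medium cells (1.38 ± 0.25, limma adjusted p = 0.11). The general granule protein Chga, at 11.40 in Lgr5 Low cells, lay between the EphB2 Medium arrays at 11.86 and 10.31, as did Chgb at 13.06 between 13.18 and 12.41.

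Absorptive lists other than the hydrolases had smaller median differences than the secretory lists. The hydrolases lay between the commitment and goblet lists. Median differences were 0.42 for brush border hydrolases, 0.15 for lipid uptake genes, 0.15 for microvillus genes, 0.09 for transporters and -0.07 for absorptive regulators. Members at least 2-fold higher and kept numbered 3 of 20 hydrolases (15%), 2 of 25 microvillus genes (8.0%), 2 of 35 transporters (5.7%), 1 of 24 regulators (4.2%) and 0 of 29 lipid genes, beside 1.42% of all genes. No absorptive gene was lower by 2-fold and kept, but the transporter Slc40a1 was lower by 2-fold and discounted. The discount removes lower genes more readily where Lgr5 High cells lay low. Transporters had a median difference of -0.78 between Lgr5 High and EphB2 High cells, so the absence of kept lower genes is partly set by the rule. Ace, described above, was the only absorptive list member that passed the test and was kept.

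Among hydrolases, Enpp3, an ectonucleotidase, read 10.11 in Lgr5 Low cells, against 8.34 and 8.86 in EphB2 Medium cells, and the metalloprotease subunit Mep1a read 10.32 in Lgr5 Low cells, against 8.94 and 9.48 in EphB2 Medium cells. Lactase, Lct, read 11.80 in Lgr5 Low cells, against 11.39 and 11.45 in EphB2 Medium cells and 13.61 and 13.69 in EphB2 Low cells. Alkaline phosphatase, Alpi, read 12.55 in Lgr5 Low cells, against 12.63 and 12.61 in EphB2 Medium cells. The hydrolases thus ran from a difference of -0.73 in the phosphatase Alppl2, which was discounted, to 1.51 in Enpp3. Neither value was shared by all probe sets of its gene: a dimmer one differed by 0.17 for Alppl2, and one differed by 0.03 for Enpp3.

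Tmigd1, an adhesion protein of the microvillus, had the largest absorptive difference, at 11.14 in Lgr5 Low cells, against 7.61 and 8.89 in EphB2 Medium cells (2.89 ± 0.85, limma adjusted p = 0.21). Espn, an actin bundler, read 8.19 in Lgr5 Low cells, against 6.65 and 6.62 in EphB2 Medium cells (1.55 ± 0.18, limma adjusted p = 0.056). Structural genes of the brush border differed by little: Vil1 read 13.12 in Lgr5 Low cells, against 13.00 and 13.06 in EphB2 Medium cells, and Myo1a read 12.88 in Lgr5 Low cells, against 12.81 and 12.91 in EphB2 Medium cells. Hnf4g, a nuclear receptor of enterocytes, read 11.93 in Lgr5 Low cells, against 10.77 and 11.01 in EphB2 Medium cells (1.04 ± 0.17, limma adjusted p = 0.095). Its other probe sets, at 10.03 and 10.29 in Lgr5 Low cells, differed by -0.05 and 0.08, so that the difference rested on 1 of 3 probe sets. Its partner Hnf4a read 13.42 in Lgr5 Low cells, against 13.50 and 13.56 in EphB2 Medium cells, although 3 dimmer Hnf4a probe sets had differences above 0.

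Transporters split in both directions. Slc13a2, a citrate carrier, read 10.50 in Lgr5 Low cells, against 9.25 and 9.29 in EphB2 Medium cells, and the water channel Aqp8 read 6.29 in Lgr5 Low cells, against 4.53 and 4.29 in EphB2 Medium cells. The glucose carriers Slc5a1 and Slc2a2 differed by -0.01 and 0.07. Slc40a1, the iron exporter, read 10.11 in Lgr5 Low cells, against 11.38 and 10.95 in EphB2 Medium cells, and was discounted because Lgr5 High cells at 8.67 also lay below all EphB2 arrays. Of 29 lipid uptake and chylomicron genes, 20 lay above both EphB2 Medium arrays, beside 40.8% of all genes. Apoa4, an apolipoprotein of chylomicrons, read 13.29 in Lgr5 Low cells, against 12.30 and 12.32 in EphB2 Medium cells (0.98 ± 0.14, limma adjusted p = 0.078), while Apob, the structural protein of chylomicrons, read 12.10 in Lgr5 Low cells, against 12.30 and 12.20 in EphB2 Medium cells.

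Stem cell genes had a median difference close to 0, with 2 receptors past 2-fold. Of 23 genes, 8 lay above both EphB2 Medium arrays and 12 below both, beside 40.8% and 36.9% of all genes, with a median difference of -0.04. Without the 9 discounted members the median was -0.14. Lgr5 High cells had a median difference of 0.29 from EphB2 High cells, and the difference between the Low and Medium gates less that between the High gates had a median of -0.31. Besides Lgr5, only Tnfrsf19, a member of the tumour necrosis factor receptor family, was past 2-fold, at 6.97 in Lgr5 Low cells, against 8.59 and 8.07 in EphB2 Medium cells and 10.52 in Lgr5 High cells. One of its dimmer probe sets went the other way, by 0.34. Olfm4 read 13.51 in Lgr5 Low cells, against 13.18 and 13.24 in EphB2 Medium cells, and Smoc2 read 11.60 in Lgr5 Low cells, against 11.50 and 11.67 in EphB2 Medium cells. Ascl2, the factor that maintains stem cells, read 10.10 in Lgr5 Low cells, against 9.87 and 9.86 in EphB2 Medium cells. Olfm4 and Ascl2 were both discounted, because Lgr5 High cells lay above all EphB2 arrays. The dimmer Ascl2 probe sets differed by -0.30 and -0.01.

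Cycling genes lay slightly lower in Lgr5 Low cells. Of 28 mitosis genes, 20 lay below both EphB2 Medium arrays and 3 above, and of 33 DNA replication genes 25 lay below both and 3 above, beside 36.9% of all genes below both. The median differences were -0.16 and -0.18, and no member was past 2-fold. Lgr5 High cells showed the same shift from EphB2 High cells, by medians of -0.18 and -0.15, and the difference of the Low and Medium gates less that of the High gates had a median of 0.01 for both lists. Mki67, the proliferation antigen, read 12.78 in Lgr5 Low cells, against 12.95 and 12.99 in EphB2 Medium cells. Notch pathway genes had a median difference of -0.02, and Notch4 was the only member past 2-fold, at 5.97 in Lgr5 Low cells, against 6.88 and 7.30 in EphB2 Medium cells.

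The remaining lists describe the state of the cells and the samples. Genes of the dissociation stress response had a median difference of 0.15 between Lgr5 Low and EphB2 Medium cells, and 15 of 26 lay above both EphB2 Medium arrays, beside 40.8% of all genes. The median difference of Lgr5 High from EphB2 High cells was 0.19 for the same list. Interferon response genes had a median difference of -0.14, red blood cell genes of 0.27 and sex-linked genes of -0.24, with no kept member past 2-fold. Among the 6 measured MHC class II genes, which present antigen and are made by part of the crypt epithelium, the median difference was 0.49. It was 0.43 between Lgr5 High and EphB2 High cells, and the difference of the Low and Medium gates less that of the High gates had a median of -0.01. H2-Aa, a chain of such a molecule, read 11.01 in Lgr5 Low cells, against 10.28 and 9.60 in EphB2 Medium cells, with 11.30 in Lgr5 High cells, against 10.85 and 10.37 in EphB2 High cells, and was the only one past 2-fold and kept.

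A second view used steps taken inside the hybridizations, which share no array. The step of Lgr5 Low from Lgr5 High cells was set beside the step of EphB2 Medium from EphB2 High cells in each EphB2 hybridization, so that a shift common to the arrays of 1 hybridization drops out of its step. Of the 26 tuft genes, 21 were higher in Lgr5 Low than in Lgr5 High cells while lower in EphB2 Medium than in EphB2 High cells in both hybridizations. The same pattern held for 11 of 16 Paneth, 8 of 20 commitment and 8 of 29 goblet genes, beside 12.4% of all genes. It held for 1 of 36 enteroendocrine genes and for 3 members across all 5 absorptive lists.

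In absorptive lists both steps went up, and the Lgr5 step was the larger. The median step of brush border hydrolases was 2.29 in Lgr5 Low from Lgr5 High cells, against 1.64 in EphB2 Medium from EphB2 High cells. For transporters the medians were 2.33 in the Lgr5 sort, against 1.61 in the EphB2 sort. The larger step came with a lower starting level, since these lists had median differences of -0.30 and -0.78 between Lgr5 High and EphB2 High cells. Enteroendocrine genes had a median step of 1.82 in the Lgr5 sort, against 0.63 in the EphB2 sort. Their median difference between Lgr5 High and EphB2 High cells was -0.50. That difference was -0.50 for tuft, -0.64 for goblet, -0.31 for commitment and 0.03 for Paneth genes.

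The difference between the steps was tested for every gene, and 0 of 18193 genes passed (0.0%; limma, lowest adjusted p = 0.17), with 1080 genes at an unadjusted p below 0.05. The median over all genes was 0.07, and 60.7% of genes had a positive value. Spdef had a difference between steps of 2.04 ± 0.37 (limma adjusted p = 0.30), Rgs13 of 3.97 ± 0.86 (limma adjusted p = 0.41) and Dclk1 of 3.56 ± 0.91 (limma adjusted p = 0.51). Lgr5 High less EphB2 High cells, which enters these values, was -0.81 for Spdef, -0.86 for Rgs13 and -2.53 for Dclk1. Positive values numbered 24 of 26 tuft, 16 of 16 Paneth, 28 of 29 goblet, 35 of 36 enteroendocrine and 16 of 20 commitment genes. They numbered 18 of 20 hydrolase, 31 of 35 transporter, 23 of 29 lipid, 23 of 25 microvillus and 14 of 24 regulator genes. List medians ran from 0.84 to 1.35 in the secretory lists. They were 1.04 for transporters, 0.99 for hydrolases and at most 0.45 in the other absorptive lists.

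**Figure D4:**
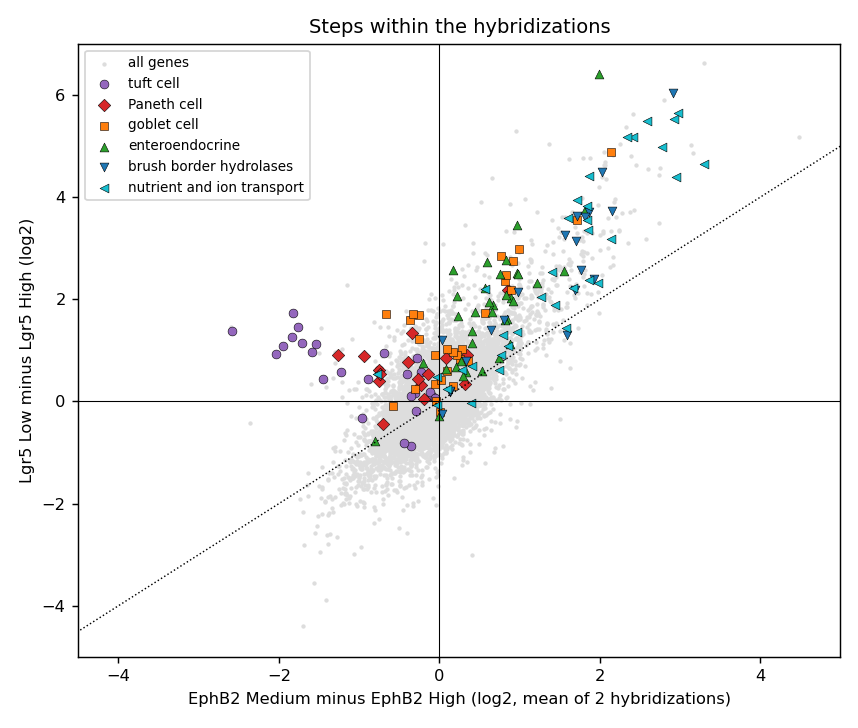
Each point is 1 gene, with the log2 step of Lgr5 Low from Lgr5 High cells on the vertical axis and the mean log2 step of EphB2 Medium from EphB2 High cells on the horizontal axis, and the dotted line marks equal steps. Most tuft genes (purple) and Paneth genes (red) lie to the upper left, up in the Lgr5 sort and down in the EphB2 sort, while hydrolases and transporters (blue tones) lie to the upper right.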

How the data were processed

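The authors deposited log2 values made with RMA, per the submitters' processing notes, from Affymetrix arrays. Per the labels' protocols, 25 ng of total RNA per sample was amplified isothermally. RMA's version, and whether the 8 arrays were normalized together, are not given in the sources used here.

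Of 45101 probe sets, 34945 named exactly 1 gene through the platform annotation and were used, 932 named several, 9160 had no name in it and 64 were controls. Symbols were updated through RefSeq gene IDs (34741 found). A gene was represented by its brightest probe set over the 6 EphB2 arrays. More than 1 probe set existed for 74 of 183 genes named in the text, picked by the rule below or bright and past 2-fold. At least 1 of them ran against the chosen one for 27 genes, with 7 such probe sets at an unadjusted p below 0.05.

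limma 3.58.1 in R 4.3.3 (lmFit, contrasts.fit, eBayes, 2-sided) was fitted to all 8 arrays by group, with Benjamini-Hochberg adjustment over the 34945 probe sets. Errors are limma standard errors with 1 Lgr5 Low and 2 EphB2 Medium arrays. The labels do not say whether replicates were separate animals, so p-values measure only the spread between samples, which may be technical. In simulated data with the same arrays and groups, 79% of probe sets changed by 3 (log2) and 32% of those changed by 1.5 were recovered. The simulation gave every array independent noise with the spread between EphB2 replicates. It held no shift of a hybridization, so these rates do not cover such a shift.

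EphB2 replicate numbers mark a shared hybridization in the labels, and same-numbered deviations correlated at 0.45, 0.13 and 0.21, so the numbers pair those arrays. The main fit left this pairing out, and the fit with the replicate block included it.

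The comparison, its 22 gene lists and the discount were chosen with earlier results of these data known. The lists for mitosis, DNA replication, the Notch pathway, interferon response, dissociation stress, MHC class II and sex-linked genes were added to the planned lists after the files were in hand, and are descriptive only. Named genes were Lgr5, up to 12 kept calls per direction above the median gene, the 5 largest discounted calls, up to 5 called members per list and the 2 brightest of lists with fewer than 2 calls, and the commitment list. Other genes, and the 2-fold description, were chosen after their values were seen. Ephb2 and most defensins had no single-gene probe set and were not analysed here.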

Additional observations from a re-analysis of the deposited data

Results flagged for a closer look

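In 37 of the 101 genes named here, the step of Lgr5 Low from Lgr5 High cells went one way and both steps of EphB2 Medium from EphB2 High cells went the other. The difference between the steps did not pass adjustment over all probe sets for any of them, and single unadjusted limma p-values ran between 0.00014 and 0.64. The differences were 2.04 for Spdef, 1.48 for Atoh1, 1.57 for Selenom, 1.23 for Creb3l1, 1.18 for Creb3l4, 1.17 for Kit, 0.93 for Dll4 and 0.64 for Dll1 among the commitment genes. They were 2.17 for Pla2g2a, 1.68 for Lyz2 and 1.17 for Nupr1 among the Paneth genes, 0.95 for the enteroendocrine gene Reg4, and 0.12 for the keratin Krt18 of the tuft list. Further Paneth genes had 1.83 (Pnliprp2), 1.37 (Mmp7), 1.27 (Habp2), 0.70 (Itln1), 0.67 (Ang4) and 0.55 (Lyz1). Further tuft genes had 3.97 (Rgs13), 3.56 (Dclk1), 3.10 (Sh2d6), 3.04 (Trpm5), 2.97 (Fyb), 2.85 (Alox5ap), 2.66 (Avil), 2.56 (Siglecf), 1.90 (Vav1), 1.81 (Alox5), 1.64 (Plcb2), 1.37 (Ly6g6d), 1.33 (Il25) and 0.46 (Il17rb). The goblet gene Ern2 and the secretory factor Bhlha15 each had 1.94. The succinate receptor Sucnr1 had 1.15, and Moxd1, a monooxygenase-like protein, had -1.02. Both were discounted calls of the direct comparison. Sucnr1 read 6.08 in Lgr5 Low cells, against 3.75 and 3.31 in EphB2 Medium cells, with 5.38 in Lgr5 High cells. Moxd1 read 3.86 in Lgr5 Low cells, against 6.19 and 6.29 in EphB2 Medium cells, with 4.59 in Lgr5 High cells, and was the only lower call. In 36 of the 37 genes, all but Moxd1, the Lgr5 step was upward. An upward Lgr5 step with both EphB2 steps downward was found in 12.4% of all genes. Many of the named genes were chosen after their values on these arrays were seen, so the count is a description only.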

How the results depend on the processing

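The count of 12 higher genes was 0 with the replicate block and 0 without any 1 of the 6 EphB2 arrays. It was also 0 with dim probe sets removed and 0 with the 3 compared arrays alone. The replicate block fit kept all 8 arrays and all probe sets, while the other fits had fewer arrays or probe sets. Why the calls were lost was not tested. The count was 2 after quantile normalization, 6 with arrays centred on their medians and 6 with the wide discount (Lgr5 High outside both EphB2 High arrays). It was 28 with probe sets of a gene averaged and 31 with no discount. Lower calls numbered 2 with averaging and 1 with no discount, and 0 otherwise. The difference between steps called 0 genes in every setting, the replicate block included. The 2-fold description, chosen after seeing the data, gave 259 higher and 53 lower genes. Higher genes were 76 with dim probe sets removed, 404 with no discount, 170 with the wide discount and 271 to 325 against 1 EphB2 Medium array. Lower genes were 17, 101, 26 and 89 to 95 in the same settings, and 30 with averaging. The enteroendocrine count of 4 ran between 3 and 17 against 1 EphB2 Medium array, and the commitment count of 2 between 3 and 4. List medians as the difference between steps were 0.84 for commitment, 0.97 for goblet, 0.99 for hydrolase, 1.04 for transporter, 0.45 for lipid, 0.25 for microvillus and 0.071 for absorptive regulator genes. Without discounted members the medians of the direct difference were 0.35 for transporter, 0.27 for lipid, 0.23 for microvillus and 0.012 for regulator genes. The discount removes lower members more readily where Lgr5 High cells lay low, so these rises can come from the rule. Against 1 EphB2 Medium array the medians ran between 0.23 and 0.53 for goblet, 0.10 and 0.16 for transporter, 0.15 and 0.15 for lipid, 0.095 and 0.16 for microvillus and -0.081 and -0.0022 for regulator genes. The regulator median changed sign, at -0.066 in the main setting, 0.012 without discounted members and 0.071 as the difference between steps. The medians of the other lists given here kept their sign. Signal limits dim genes: 8 of the 12 higher genes lay below the median gene level, and 183 of the 259.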

Other observations

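Bright genes outside the lists, chosen after their values were seen, included several genes at least 2-fold higher in Lgr5 Low cells, in addition to those already described. Pmp22, a membrane protein of myelin and epithelia, read 10.53 in Lgr5 Low cells, against 7.60 and 8.29 in EphB2 Medium cells and 12.01 and 11.90 in EphB2 Low cells. The phosphodiesterase Gdpd2 read 9.37 in Lgr5 Low cells, against 7.26 and 7.49 in EphB2 Medium cells, and the small GTPase Rab30 read 10.81 in Lgr5 Low cells, against 8.98 and 9.50 in EphB2 Medium cells. In these 3 genes the Lgr5 Low array lay between EphB2 Medium and EphB2 Low cells.

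Carbonic anhydrases, which supply bicarbonate and protons, were also among them. Car1 read 12.87 in Lgr5 Low cells, against 11.39 and 9.88 in EphB2 Medium cells, and Car2 read 11.21 in Lgr5 Low cells, against 9.67 and 9.12 in EphB2 Medium cells. In both the Lgr5 Low array was the highest of the 8 arrays. Bhlha15, a transcription factor that builds the secretory apparatus, read 10.17 in Lgr5 Low cells, against 8.45 and 8.69 in EphB2 Medium cells, also the highest of the 8 arrays, although a dimmer probe set of it differed by -0.55. On the lower side, Slit2, a guidance ligand, read 7.13 in Lgr5 Low cells, against 8.57 and 8.46 in EphB2 Medium cells, and a second probe set differed by 1.20 in the other direction. The cell cycle repressor E2f7 read 8.52 in Lgr5 Low cells, against 9.73 and 9.75 in EphB2 Medium cells. None of these passed the test between the gates after adjustment.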
